A study of Mus musculus with 14 samples.

Results

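The genes studied here encode products that fill the red blood cell. The 4 adult globin genes Hba-a1, Hba-a2, Hbb-bs and Hbb-bt and the carbonic anhydrase genes Car1 and Car2 were followed in a mouse leukemia line after knockdown of Ogdh. These 6 genes were taken by gene symbol from a table of 53465 genes, and all 6 were found and passed the filter on low counts that left 10791 genes for testing. The cells were KL974, a line of murine acute myeloid leukemia with the genotype Trp53R172H;shMll3;shNf1, which every group shares, controls included. They grew in serum with the murine cytokines IL3, IL6 and SCF. Each carried a hairpin, delivered by lentivirus, that doxycycline turns on together with blue fluorescent protein (BFP). The 14 libraries form 7 groups of 2. Cells with the control hairpin shRen713 were taken untreated at day 0, and as sorted BFP negative (not induced) and BFP positive (induced) cells at days 2 and 4. Cells with shOgdh346 or shOgdh2081, hairpins against Ogdh, were taken as BFP positive cells at day 4. All groups come from 1 cell line, BFP negative cells were sampled for the control hairpin, and the titles of the day 0 samples name no sort. Replicates are not described as separate cultures, so p-values measure a spread between libraries that may be technical.

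Hemoglobin is a tetramer of alpha and beta chains, and each red cell precursor makes both from paired gene copies that are switched on late in maturation. The alpha genes and the beta genes lie on different chromosomes, each cluster under its own distal enhancers, and they are bound by shared factors such as GATA1 and, at the beta genes, KLF1. Carbonic anhydrases 1 and 2 interconvert carbon dioxide and bicarbonate in the red cell. Car1 is widely used as an early mark of erythroid commitment, while Car2 is also made by many other cells. The comparison asks whether these genes move when leukemia cells lose Ogdh, the E1 subunit of the enzyme complex that turns 2-oxoglutarate into succinyl-CoA, from which heme is built.

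The paired globin copies are so alike that their sequence sets what the counts can tell apart, which is why it is shown here. In the GENCODE M21 transcripts the coding sequences of Hba-a1 and Hba-a2 (426 bases) differ at 1 position, and those of Hbb-bs and Hbb-bt (441 bases) also differ at 1 position. The 61-base stretches around the differing base, shown in capitals, are as follows.

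Hba-a1, coding bases 351 to 411: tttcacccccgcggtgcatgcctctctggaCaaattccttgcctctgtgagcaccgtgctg

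Hba-a2, coding bases 351 to 411: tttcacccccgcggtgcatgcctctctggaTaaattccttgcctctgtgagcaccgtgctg

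Hbb-bs, coding bases 381 to 441: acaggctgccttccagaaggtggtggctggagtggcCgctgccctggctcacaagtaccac

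Hbb-bt, coding bases 381 to 441: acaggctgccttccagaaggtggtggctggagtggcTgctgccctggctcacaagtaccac

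Reads were 76 bases long. Of all 76-base windows of the main transcript, 62% were shared with the partner gene for Hba-a1, 80.8% for Hba-a2, 64.2% for Hbb-bs and 56.5% for Hbb-bt. For Car1, 6.34% of windows were shared, with Gm5843, and none of the windows of Car2 were. The sources used here do not say how the authors treated reads that map to more than 1 gene. Single globin genes are therefore uncertain, and each comparison is also given for the sum of the pair, which does not depend on how reads were split within it. If shared reads were discarded, they are missing from the sum as well. Car1 also overlaps Gm16399 on the same strand. Gm16399 and Gm5843 each had 0 counts.

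**Figure D1:**
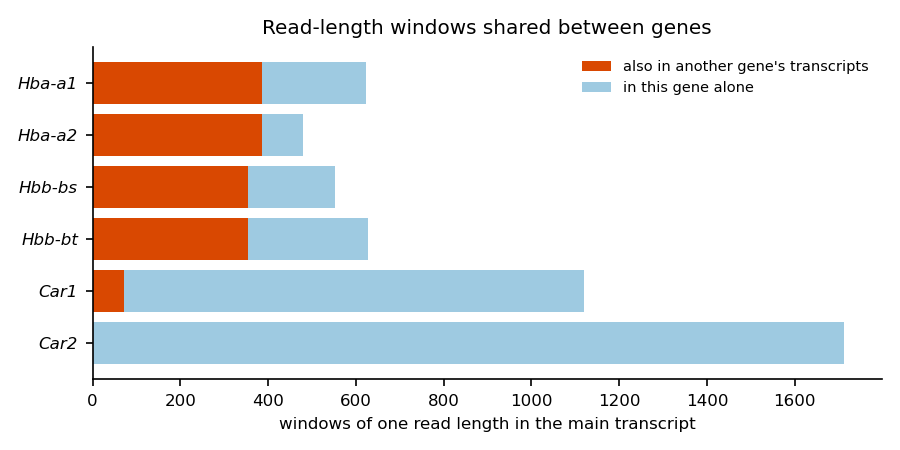
The bars count the windows of read length in the main transcript of each gene, split into those also found in the transcripts of another gene and those found in this gene alone. More than 50% of windows were shared in each of the 4 globin genes, against 6.34% in Car1 and 0 in Car2.

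The genes lie on 3 chromosomes of GRCm38. Hba-a1 (ENSMUSG00000069919, chr11:32283511-32284465) and Hba-a2 (ENSMUSG00000069917, chr11:32296489-32297298) are on the plus strand of the alpha cluster. Hbb-bt (ENSMUSG00000073940, chr7:103812524-103813996) and Hbb-bs (ENSMUSG00000052305, chr7:103826534-103828096) are on the minus strand of the beta cluster. Each of the 4 has 3 exons. Car1 (ENSMUSG00000027556, chr3:14766216-14808368, minus strand, 8 exons) and Car2 (ENSMUSG00000027562, chr3:14886273-14900770, plus strand, 7 exons) are neighbours. Since the globin genes moved together in several comparisons given further on, the 140 bases before the RefSeq start (GRCm38.p6) are shown for 3 of them. The RefSeq start need not be the edge of the gene bounds given above. For Hba-a1 and Hbb-bs the window lies inside those bounds, and for Hbb-bt it lies partly inside. Capitals mark matches on either strand to the CACCC box, the CCAAT box and the TATA box (TATAA).

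Hba-a1, chr11:32283532-32283671, plus strand: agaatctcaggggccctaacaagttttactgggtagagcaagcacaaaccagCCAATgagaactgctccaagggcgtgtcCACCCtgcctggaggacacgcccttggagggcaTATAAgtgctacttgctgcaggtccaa

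Hbb-bs, chr7:103827929-103828068, minus strand: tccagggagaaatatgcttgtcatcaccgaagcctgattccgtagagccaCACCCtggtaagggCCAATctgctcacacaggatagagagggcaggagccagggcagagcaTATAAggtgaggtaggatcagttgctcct

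Hbb-bt, chr7:103813924-103814063, minus strand: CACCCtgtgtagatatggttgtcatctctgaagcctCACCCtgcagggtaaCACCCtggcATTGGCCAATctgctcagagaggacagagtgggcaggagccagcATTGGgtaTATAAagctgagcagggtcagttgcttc

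The window of Hba-a2 matches that of Hba-a1 at 137 of 140 bases after a small shift, and those of Hbb-bs and Hbb-bt match at 100 of 140. All 4 globin windows hold a CACCC box, a CCAAT box and a TATA box. Among 32851 RefSeq promoters, windows of the same length hold the CACCC box in 35.6%, the CCAAT box in 23.4% and the TATA box in 13.5%. The letters GATAA, searched likewise, are in none of the 4 windows and in 12.4% of all windows. In Hbb-bt a minus-strand match to the CCAAT box (ATTGG) touches a plus-strand match, and the window holds 3 matches to the CACCC box and 3 to the CCAAT box. These matches describe letters and not bound sites. Of the 6 genes, 4 were matched in the promoter table.

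Library totals ran from 913482 to 10271698 counts, and the shallow libraries were shOgdh2081 replicate 1 (913482) and shOgdh346 replicate 2 (1159021). Ogdh itself stood at 51.5 to 60.8 CPM (counts scaled to a common library total) in the 4 knockdown libraries and at 247.5 and 267 CPM in control BFP positive cells at day 4. That is a log2 fold change of -2.19 (SE 0.0888, adjusted p = 1.63e-30, edgeR quasi-likelihood test with Benjamini-Hochberg adjustment, used throughout). All levels in CPM are scaled by trimmed mean of M values factors, and a gene was called at an adjusted p under 0.05. Medians of the log2 fold change over all tested genes were close to 0 (0.00024 for both hairpins against control BFP positive cells and -0.000423 against BFP negative cells). In bulk libraries such as these, fewer cells of a type and less RNA per cell cannot be told apart.

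The 6 genes were measured at very different levels. Per kilobase of transcript, which allows genes to be compared, control BFP positive cells at day 4 held 201 ± 0.636 CPM of Car2, 162 ± 0.636 of Hba-a1, 97.7 ± 2.54 of Hbb-bs, 57.6 ± 6.47 of Hba-a2, 34.4 ± 1.07 of Car1 and 21.8 ± 0.742 of Hbb-bt (mean ± SD, n = 2). The median tested gene was at 9.7 CPM per kilobase. Car2 was above 98.4% of tested genes, Hba-a1 above 97.8% and Hbb-bt above 73.6%. The globin levels depend on how shared reads were counted. Together the 4 adult globins took 0.0242% (95% Wilson interval 0.0218 to 0.0268) of all counts in the lowest library, control BFP positive day 2 replicate 2. They took 0.0512% (0.0485 to 0.0541) in the highest, day 0 replicate 2. These intervals, like the floor of 3 counts that a count of 0 allows, cover counting error only. The 10 other globin genes in the table, embryonic globins such as Hbb-y and Hbb-bh1 among them, summed to 51 counts in 14 libraries with 48249780 counts. None was tested, and 3 of them (Hbb-bh0, Hbb-bh2 and Mb) had 0 counts.

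**Figure D2:**
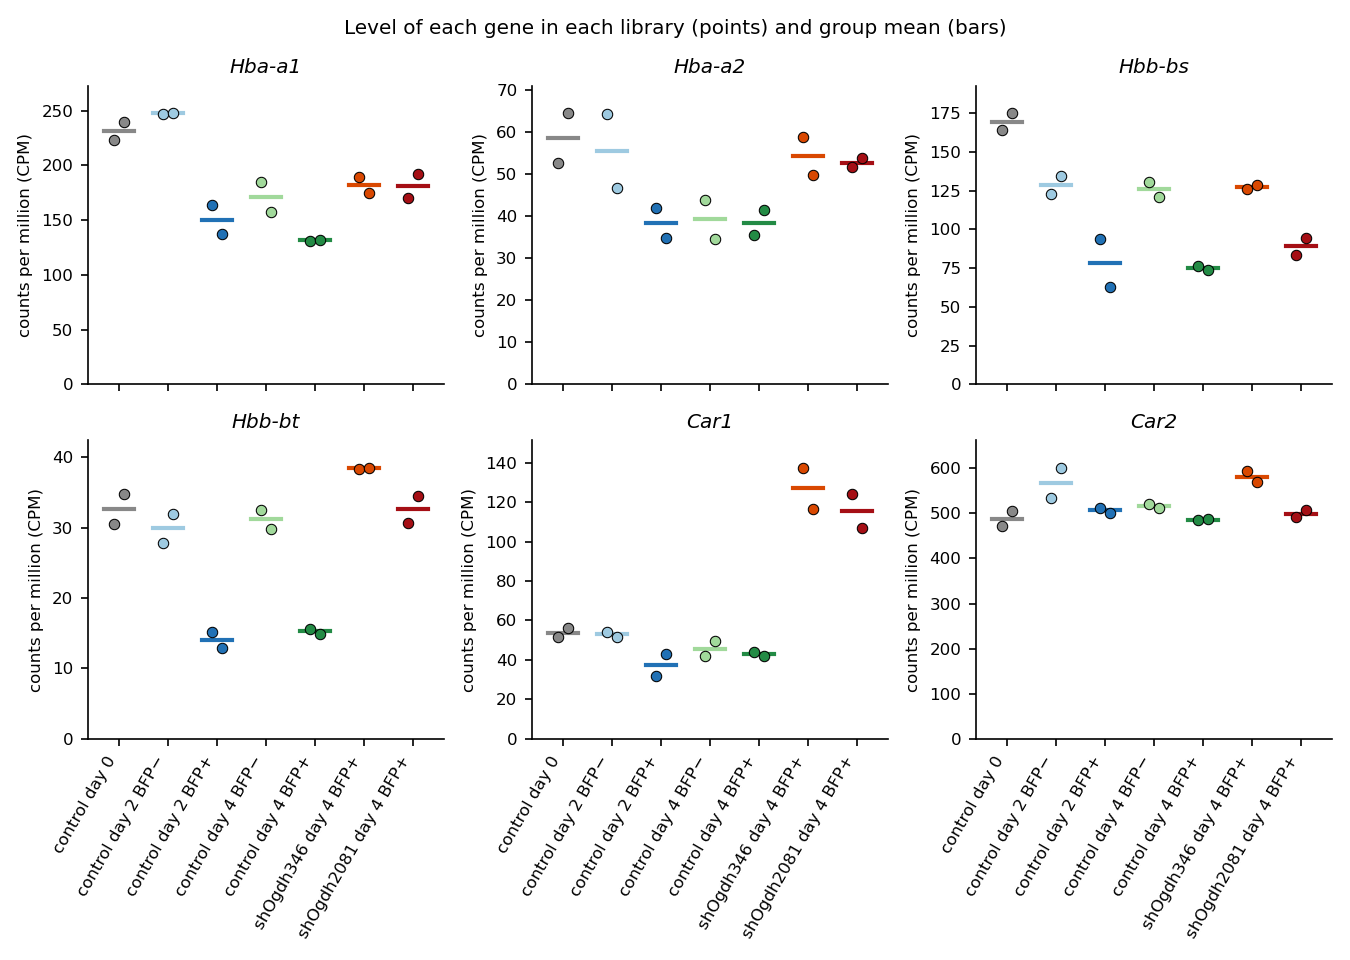
Each panel shows the level of a gene in CPM on a linear axis from 0, with a point for each library and a bar for the mean of its group of 2. Car1 in the 4 knockdown libraries (107 to 137.5 CPM) sits above all 10 control libraries (32.0 to 56.2 CPM). Hbb-bs and Hbb-bt dip in control BFP positive cells at both days.

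Against induced control cells at day 4, Ogdh knockdown came with higher levels of 5 of the 6 genes: Car1, Hbb-bt, Hba-a2, Hbb-bs and Hba-a1. Over all tested genes, 7.72% were called higher in this comparison. Car1 rose most, 2.81-fold, followed by Hbb-bt at 2.34-fold, while the other 3 globins rose 1.41-fold to 1.44-fold. Against the uninduced control cells of the same day, 2 of the 6 genes were called higher, Car1 and Hba-a2, with 10.5% of all tested genes called higher. Tested directly, the day 4 controls differed in Hbb-bs and Hbb-bt, while Hba-a1 was not called between them (adjusted p = 0.138). With the hairpins, the calls of Hbb-bs, Hbb-bt and Hba-a1 thus changed with the control used, and those of Car1 and Hba-a2 did not. These counts depended on the processing. They were 4 and 1 with DESeq2, another test, and 4 and 1 with all libraries thinned to equal depth. In each case Hba-a2 was the gene that lost its call. With only the groups compared in the fit they were 6 and 2, and with no filter on low counts 5 and 2. In the fits of these groups alone and with no filter, Hbb-bs was called lower against BFP negative cells. Leaving out single libraries also ended some calls, as given further on.

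**Figure D3:**
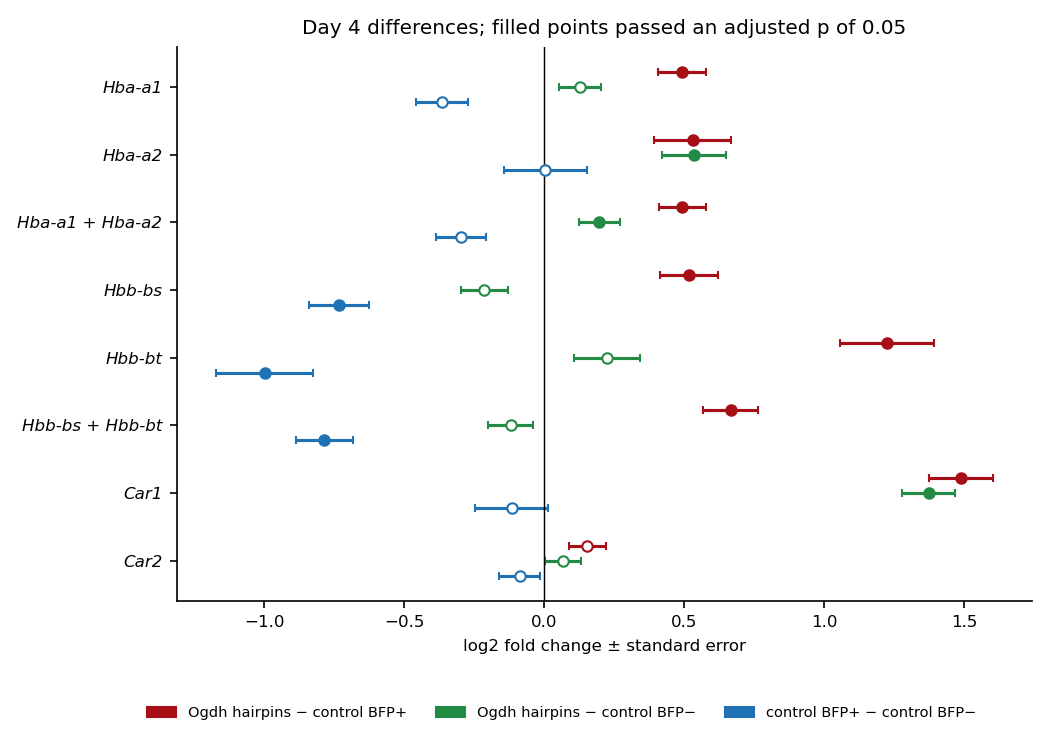
Points are log2 fold changes at day 4 with bars of 1 standard error, for both Ogdh hairpins against control BFP positive cells (red), the same against control BFP negative cells (green), and between the control populations (blue). Car1 lies at 1.49 against BFP positive and at 1.37 against BFP negative cells, while Hbb-bs lies at 0.52 against BFP positive and at -0.21 against BFP negative cells. The comparisons share libraries.

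Among the 6 genes, the beta globins carried the largest differences between the day 4 controls. Hbb-bs measured 131 and 121 CPM in control BFP negative cells at day 4 and 76.4 and 73.7 CPM in control BFP positive cells. With shOgdh346 it measured 125.8 and 128.4 CPM, and with shOgdh2081 83.3 and 94.6 CPM. The 4 knockdown libraries thus lie above both induced control libraries and do not overlap them. Against the uninduced control, shOgdh346 lies inside its range and shOgdh2081 below it. The log2 fold change of both hairpins was 0.52 (SE 0.104, adjusted p = 0.000206) against BFP positive cells. It was -0.21 (SE 0.0847, adjusted p = 0.0627) against BFP negative cells. The latter difference passed the test with no filter (-0.26, adjusted p = 0.0357) and with only the groups compared in the fit (-0.22, adjusted p = 0.0477), in the opposite direction to the rise against BFP positive cells.

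Hbb-bt, the less abundant beta gene, showed the same dip in induced control cells with a larger fold. It measured 32.5 and 29.8 CPM in control BFP negative cells at day 4 and 15.7 and 14.9 CPM in control BFP positive cells. The shOgdh346 libraries held 38.3 and 38.5 CPM and the shOgdh2081 libraries 30.7 and 34.5 CPM. All 4 exceed the induced controls, and their range overlaps that of the uninduced controls. The difference was 1.23 (SE 0.167, adjusted p = 1.2e-07) against BFP positive cells and 0.23 (SE 0.118, adjusted p = 0.172) against BFP negative cells. After thinning all libraries to 913482 counts the latter turned to -0.19 (adjusted p = 0.659). For the sum of the beta pair, the differences were 0.67 (SE 0.0976, adjusted p = 6.53e-07) and -0.12 (SE 0.0801, adjusted p = 0.306).

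Between the control populations themselves, induction of the control hairpin came with lower beta globin. At day 4 only 8 of the 10791 tested genes (0.0741%) were called between BFP positive and BFP negative cells, and 4 (0.0371%) were lower. Hbb-bs and Hbb-bt are 2 of those 4, and the other 2 are Sec11c and Slc26a1. Il9r, Rapgef4, Mettl9 and Egr1 were higher. These other calls were not equally firm. Of 13 alternatives, Rapgef4 kept its call in 12, Il9r in 11, Mettl9 in 9, Sec11c in 8, and Egr1 and Slc26a1 in 6 each. Hbb-bs fell by 0.73 on the log2 scale (SE 0.107, adjusted p = 1.77e-05), Hbb-bt by 1.00 (SE 0.174, adjusted p = 0.000717) and their sum by 0.78 (SE 0.101, adjusted p = 4.4e-07). The call for Hbb-bt did not hold when control BFP positive replicate 1 was left out (-1.05, adjusted p = 0.218) or when its replicate 2 was (-0.97, adjusted p = 0.0635), nor with DESeq2 (-1.01, adjusted p = 0.104). After thinning it was -1.55 (adjusted p = 0.0048). The fall of the sum kept its call in all 13 alternatives, with log2 fold changes from -1.02 to -0.74.

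The dip was present at day 2 as well. Hbb-bs then measured 123 and 134 CPM in BFP negative and 93.6 and 62.7 CPM in BFP positive cells, and Hbb-bt measured 27.8 and 31.95 CPM against 15.15 and 12.95 CPM. Neither gene's groups overlap, but with 2 libraries in each group this says little by itself. For this and the other separations of libraries given here, the share over all genes was not counted. Hbb-bs fell by 0.66 (SE 0.115, adjusted p = 3.98e-05) and Hbb-bt by 1.08 (SE 0.203, adjusted p = 0.000155). Hba-a1 fell too, by 0.69 (SE 0.0944, adjusted p = 1.7e-07), and Car1 by 0.55 (SE 0.154, adjusted p = 0.0168). The alpha sum fell by 0.65 (SE 0.0926, adjusted p = 5.69e-07) and the beta sum by 0.73 (SE 0.109, adjusted p = 1.95e-06), and both kept their calls in all 13 alternatives. In this comparison 4 of the 6 genes were called lower, and 3.22% of all tested genes were. Hba-a2 was not called (-0.45, SE 0.159, adjusted p = 0.0831), but it passed the test without BFP negative replicate 2 (-0.69, adjusted p = 0.0135) and with the replicate block (-0.47, adjusted p = 0.0493), which made 5 of 6 in the blocked fit. The call for Car1 rests on single libraries. It was lost without BFP negative replicate 1 (-0.51, adjusted p = 0.0768) or replicate 2 (-0.58, adjusted p = 0.0545), and without BFP positive replicate 1 (-0.29, adjusted p = 0.559), as well as with DESeq2 (-0.53, adjusted p = 0.178) and after thinning (-0.59, adjusted p = 0.195). For Hbb-bs the change was -1.04 (adjusted p = 1.33e-05) without BFP positive replicate 1, and it kept its call in all 13 alternatives. The test of whether the difference between the sorted populations changed from day 2 to day 4 called 0 of the 6 genes (71 genes or 0.658% over all genes). At an unadjusted p under 0.05 it gave 3 (Car1, Hba-a1 and Hba-a2), and DESeq2 called 0. For the sums this difference was 0.35 (SE 0.13, adjusted p = 0.268) in the alpha and -0.06 (SE 0.151, adjusted p = 0.944) in the beta pair.

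Both alpha globin genes rose against induced control cells. Hba-a1 measured 185 and 158 CPM in control BFP negative cells at day 4 and 131 and 132 CPM in control BFP positive cells. The shOgdh346 libraries held 189 and 174.6 CPM and the shOgdh2081 libraries 170.0 and 192 CPM. The knockdown libraries lie above both induced controls and overlap the uninduced ones. The differences were 0.49 (SE 0.0864, adjusted p = 2.46e-05) against BFP positive cells and 0.13 (SE 0.0753, adjusted p = 0.235) against BFP negative cells. Between the controls Hba-a1 differed by -0.36 (SE 0.0921, adjusted p = 0.138), and this passed the test without BFP negative replicate 2 (-0.49, adjusted p = 0.0172). The sum of the alpha pair differed by -0.30 (SE 0.0903, adjusted p = 0.436) between these controls.

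Hba-a2 followed another pattern at day 4. It measured 43.9 and 34.6 CPM in control BFP negative and 35.4 and 41.5 CPM in control BFP positive cells, which overlap. The shOgdh346 libraries held 58.7 and 49.6 CPM and the shOgdh2081 libraries 51.5 and 53.85 CPM, above all 4 day 4 controls. The rise was 0.53 (SE 0.138, adjusted p = 0.00435) against BFP positive and 0.54 (SE 0.115, adjusted p = 0.000383) against BFP negative cells. With 47 to 357 counts a library at day 4, these calls were not firm. Leaving out control BFP positive replicate 1 ended the first (0.41, adjusted p = 0.236), as did leaving out shOgdh346 replicate 1 (0.44, adjusted p = 0.082) or, for the other hairpin, replicate 2 (0.50, adjusted p = 0.0559), and it was also lost with DESeq2 (0.51, adjusted p = 0.0714) and after thinning (0.51, adjusted p = 0.127). The second was lost without control BFP negative replicate 2 (0.32, adjusted p = 0.144), with DESeq2 (0.49, adjusted p = 0.0566) and after thinning (0.41, adjusted p = 0.234). The sum of the alpha pair rose by 0.49 (SE 0.0838, adjusted p = 1.32e-05) against BFP positive cells in every alternative run. Against BFP negative cells the sum differed by 0.20 (SE 0.0748) at an adjusted p of 0.0499, and that call was lost in 9 of 15 alternatives, lowest without control BFP negative replicate 2 (0.06, adjusted p = 0.732). Without BFP negative replicate 1 the sum stood at 0.31 (adjusted p = 0.00876).

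Car1 was higher in each knockdown library than in any control library. The shOgdh346 libraries held 137.5 and 116 CPM and the shOgdh2081 libraries 124 and 107 CPM. The day 4 controls held 41.75 and 49.35 CPM (BFP negative) and 43.9 and 42.0 CPM (BFP positive), and day 0 cells 51.45 and 56.2 CPM. The day 2 control libraries held 32.0 to 54.4 CPM. Car1 rose by 1.49 (SE 0.115, adjusted p = 3.8e-16) against BFP positive cells and by 1.37 (SE 0.0948, adjusted p = 3.06e-18) against BFP negative cells. Both differences passed the test in all 15 alternatives, at 1.40 to 1.56 and at 1.29 to 1.53. Against day 0 the rise was 1.17 (SE 0.109, adjusted p = 1.23e-13).

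Car2, the most abundant of the 6 genes, moved little. The shOgdh346 libraries held 594 and 569 CPM and the shOgdh2081 libraries 491 and 508 CPM, against 485 and 487 CPM in BFP positive and 521 and 512 CPM in BFP negative control cells at day 4. The knockdown libraries lie just above the induced controls and spread over the uninduced ones. The differences were 0.15 (SE 0.067, adjusted p = 0.107) and 0.07 (SE 0.0638, adjusted p = 0.493), and the former passed the test with only the groups compared in the fit (0.16, adjusted p = 0.0433). Over all 14 libraries Car2 ran from 472 to 602 CPM, while Car1 ran from 32.0 to 137.5 CPM and Hbb-bt from 12.95 to 38.5 CPM.

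Taken singly, both hairpins came with higher Car1, Hbb-bt and alpha globin levels. With shOgdh346 all 6 genes were called higher than in control BFP positive cells (5.58% over all genes), and with shOgdh2081 4 of 6 were, namely Car1, Hbb-bt, Hba-a1 and Hba-a2 (6.02% over all genes). Car1 rose by 1.61 (SE 0.125) with shOgdh346 and by 1.37 (SE 0.131) with shOgdh2081, and Hbb-bt by 1.32 (SE 0.183) and 1.13 (SE 0.193). The widest gap was in Hbb-bs, which rose by 0.75 (SE 0.115, adjusted p = 2.35e-06) with shOgdh346 and differed by 0.29 (SE 0.123, adjusted p = 0.12) with shOgdh2081. The beta sum rose with both, by 0.87 (SE 0.108, adjusted p = 1.13e-08) with shOgdh346 and by 0.46 (SE 0.114, adjusted p = 0.0036) with shOgdh2081. With replicate 1 of the induced control left out the latter no longer passed (0.50, adjusted p = 0.0536), nor did it with shOgdh2081 replicate 2 left out (0.33, adjusted p = 0.33). The alpha sum rose by 0.50 (SE 0.0948, adjusted p = 0.000121) and 0.49 (SE 0.0969, adjusted p = 0.000307), calls that were lost without shOgdh346 replicate 1 (0.41, adjusted p = 0.0789) and without shOgdh2081 replicate 2 (0.38, adjusted p = 0.123). Compared directly, shOgdh2081 and shOgdh346 differed in 0 of the 6 genes (9 genes or 0.0834% over all genes). At an unadjusted p under 0.05 there were 3 (Hbb-bs, Car1 and Car2), and DESeq2 called 0. Hbb-bs was lower with shOgdh2081 by 0.46 (SE 0.114, adjusted p = 0.0901), and this passed the test with no filter (-0.49, adjusted p = 0.0217) and with only these groups in the fit (-0.46, adjusted p = 0.0138). Between the hairpins the beta sum differed by -0.40 (SE 0.106, adjusted p = 0.129) and passed the test with only these groups in the fit (-0.40, adjusted p = 0.0345), and the alpha sum differed by -0.01 (SE 0.0939, adjusted p = 0.986). Hba-a2 with shOgdh2081 had 47 and 251 counts, and its call was lost in 8 of 13 alternatives, among them those without either of these libraries (0.51, adjusted p = 0.0587, and 0.43, adjusted p = 0.406) or either control BFP positive library (0.37, adjusted p = 0.377, and 0.58, adjusted p = 0.0547). With shOgdh346 it was not called when control BFP positive replicate 1 was left out (0.45, adjusted p = 0.235) or when replicate 1 of the hairpin was (0.39, adjusted p = 0.437), nor with DESeq2 (0.54, adjusted p = 0.12) or after thinning (0.55, adjusted p = 0.19). The call of Car2 with shOgdh346 (0.26, SE 0.0764, adjusted p = 0.0156) was lost without either control BFP positive library (adjusted p = 0.134 and 0.0943) and without shOgdh346 replicate 1 (0.23, adjusted p = 0.221), and also after thinning (0.27, adjusted p = 0.0749). For Hba-a1 the call was lost without shOgdh346 replicate 1 (0.41, adjusted p = 0.0967) and, for the other hairpin, without shOgdh2081 replicate 2 (0.36, adjusted p = 0.183). Without that library the call of Hbb-bt with shOgdh2081 was lost as well (0.99, adjusted p = 0.0678).

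Day 0 cells, which were untreated, held the most Hbb-bs of all groups (164 and 175 CPM) and high levels of the alpha genes. Against day 0, induced control cells at day 4 were lower in all 4 globins (4 of the 6 genes, with 3.65% of all genes called lower). Hba-a1 fell by 0.81 (SE 0.0951), Hba-a2 by 0.62 (SE 0.155), Hbb-bs by 1.17 (SE 0.111) and Hbb-bt by 1.08 (SE 0.192). Induced control cells at day 2 were lower in 5 of 6, all but Car2 (8.77% over all genes), with Hbb-bs at -1.05 (SE 0.113) and Hbb-bt at -1.18 (SE 0.206), the latter at -2.02 after thinning. Uninduced control cells at day 4 were lower in Hba-a1 (-0.45, SE 0.0854), Hba-a2 (-0.62, SE 0.135) and Hbb-bs (-0.44, SE 0.0939), which is 3 of 6 (4.19% over all genes), while Hbb-bt stood at -0.08 (SE 0.146, adjusted p = 0.79). At day 2 uninduced cells differed in 2 of 6 (10.3% over all genes), with Hbb-bs at -0.39 (SE 0.0994, adjusted p = 0.0062) and Car2 at 0.22 (SE 0.075, adjusted p = 0.0436). For the pairs, the alpha sum was lower than at day 0 by 0.78 (SE 0.0927, adjusted p = 4.35e-09) in induced cells at day 4 and by 0.59 (SE 0.0939, adjusted p = 2.76e-06) at day 2. In uninduced cells it was lower by 0.48 (SE 0.0849, adjusted p = 4.56e-05) at day 4 and stood at 0.06 (SE 0.086, adjusted p = 0.747) at day 2. The beta sum was lower in all 4 comparisons, by 1.17 (SE 0.105, adjusted p = 2.25e-13) and 1.07 (SE 0.108, adjusted p = 7.03e-12) in induced cells at days 4 and 2, and by 0.38 (SE 0.09, adjusted p = 0.00359) and 0.34 (SE 0.0948, adjusted p = 0.0116) in uninduced cells. These comparisons combine time, doxycycline and sorting.

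Several of these calls depend on 1 library. Without day 0 replicate 2, the calls of Hba-a2 against day 0 were lost in BFP positive cells at day 4 (-0.48, adjusted p = 0.175), in BFP positive cells at day 2 (-0.42, adjusted p = 0.164) and in BFP negative cells at day 4 (-0.48, adjusted p = 0.13). Those of Hbb-bs in BFP negative cells were lost as well, at day 2 (-0.34, adjusted p = 0.11) and at day 4 (-0.40, adjusted p = 0.0596). Without BFP negative day 4 replicate 2, Hba-a1 stood at -0.33 (adjusted p = 0.0767), Hba-a2 at -0.42 (adjusted p = 0.19) and Hbb-bs at -0.39 (adjusted p = 0.0619). Hba-a2 also lost its call without BFP positive day 4 replicate 1 (-0.50, adjusted p = 0.217) and without BFP positive day 2 replicate 2 (-0.46, adjusted p = 0.0793). The call of Car1 in BFP positive cells at day 2 was lost without day 0 replicate 2 (-0.52, adjusted p = 0.0665) and without BFP positive day 2 replicate 1 (-0.33, adjusted p = 0.374). The call of Car2 at day 2 held in 3 of 13 alternatives. For the sums in uninduced cells, the beta call at day 4 was lost without day 0 replicate 2 (-0.33, adjusted p = 0.124) and without BFP negative day 4 replicate 2 (-0.32, adjusted p = 0.135), and the alpha call without the latter (-0.35, adjusted p = 0.0526). The beta call at day 2 was lost without day 0 replicate 2 (-0.29, adjusted p = 0.167) and without BFP negative day 2 replicate 1 (-0.29, adjusted p = 0.0645).

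DESeq2 and thinning ended some of these calls as well. Of the 2 genes called in uninduced cells at day 2, 0 were called with DESeq2 (Hbb-bs at -0.40, adjusted p = 0.0847, and Car2 at 0.22, adjusted p = 0.121) and 0 after thinning (-0.36, adjusted p = 0.16, and 0.19, adjusted p = 0.279). In uninduced cells at day 4 the 3 calls became 1 after thinning, that of Hba-a1, with Hba-a2 at -0.51 (adjusted p = 0.303) and Hbb-bs at -0.38 (adjusted p = 0.157), and DESeq2 did not call Hba-a2 (-0.60, adjusted p = 0.0555). The beta sums of uninduced cells were called neither after thinning (adjusted p = 0.0944 at day 2 and 0.283 at day 4) nor with DESeq2 (0.115 and 0.0525). In induced cells Hba-a2 lost its call after thinning at day 2 (-0.62, adjusted p = 0.089) and at day 4 (-0.61, adjusted p = 0.162), and with DESeq2 at day 2 (-0.59, adjusted p = 0.0692). At day 4 DESeq2 called 2 of the 6 genes lower in induced cells, Hba-a1 and Hbb-bs, where edgeR called 4.

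Set against day 0, the knockdown cells were higher in Car1, lower in Hbb-bs and Hba-a1, and not called for the other 3 genes. This makes 3 of the 6 genes called, with 35.7% of all genes called. Hbb-bs was lower by 0.65 (SE 0.0898, adjusted p = 2.45e-08) and Hba-a1 lower by 0.32 (SE 0.0788, adjusted p = 0.000816). Hbb-bt stood at 0.14 (SE 0.14, adjusted p = 0.453) and Hba-a2 at -0.09 (SE 0.125, adjusted p = 0.63). Both sums were lower, the alpha sum by 0.29 (SE 0.0774, adjusted p = 0.00243) and the beta sum by 0.50 (SE 0.0848, adjusted p = 2.94e-06). The call of the alpha sum was lost without day 0 replicate 2 (-0.22, adjusted p = 0.115). For Hbb-bs the order of the group means was day 0 (169 CPM), then BFP negative cells at day 2 (128.6 CPM), shOgdh346 (127.1 CPM) and BFP negative cells at day 4 (125.8 CPM), then shOgdh2081 (89.0 CPM), BFP positive cells at day 2 (78.2 CPM) and at day 4 (75.1 CPM). The groups from BFP negative day 2 to BFP negative day 4 in this order differ by less than the SD of the BFP negative groups (8.06 CPM at day 2 and 6.86 CPM at day 4). For Car1 the order was shOgdh346, shOgdh2081 (116 CPM), and then a gap to day 0 (53.8 CPM), with the lowest mean in BFP positive cells at day 2 (37.5 CPM).

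The share of each gene within its pair was looked at after the values were seen and is given as a description. Hbb-bt took 23.1% to 26.9% of the pair's counts in the 4 knockdown libraries and 13.9% to 19.9% in the 10 control libraries, with no overlap. The lowest knockdown share, in shOgdh346 replicate 2, was 45 of 195 counts, and the highest control share, in BFP negative day 4 replicate 1, was 120 of 602 counts. Their 95% Wilson intervals (17.7 to 29.5% and 16.9 to 23.3%) overlap. The 4 day 4 controls held 16.8% to 19.9%. For Hba-a2 in the alpha pair the shares overlapped, at 21.9% to 23.7% in knockdown and up to 23.9% in day 4 control libraries. The shares depend on how reads shared within a pair were assigned.

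**Figure D4:**
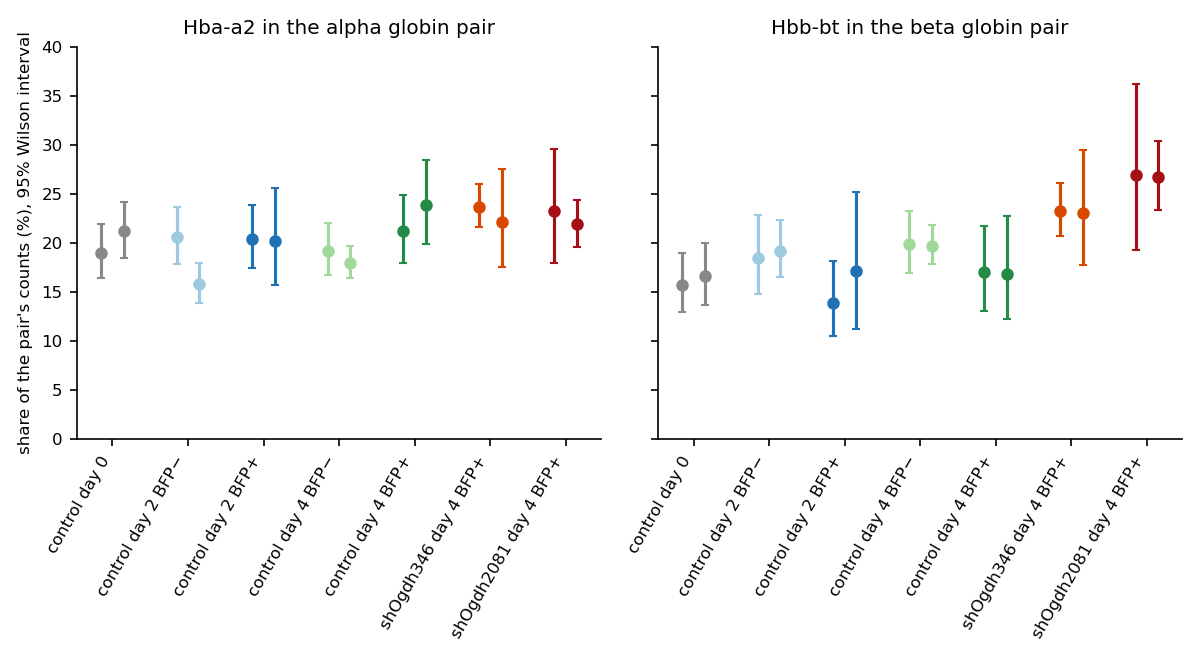
Each point is the share of a pair's counts assigned to Hba-a2 (left) or Hbb-bt (right) in a library, in percent with a 95% Wilson interval. The Hbb-bt share is between 23.1% and 26.9% in the knockdown libraries and at most 19.9% in the control libraries, while Hba-a2 shares overlap.

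Other red cell genes were read from lists chosen with results of these data known. Of 19 genes for the red cell membrane and its skeleton, 18 were tested. Against control BFP positive cells 6 rose, 1 fell and 11 did not pass (16.1% of all genes were called in either direction), with a median log2 fold change of 0.195 beside 0.00024 over all genes. The largest rises were those of Sptb, the beta spectrin of the skeleton (0.68, SE 0.156), Aqp1, the water channel (0.60, SE 0.167), and Epb42, a protein that anchors the skeleton (0.43, SE 0.131). Ank1, the ankyrin that links spectrin to the membrane, fell by 0.30 (SE 0.0773). Aqp1 measured 38.3 to 40.2 CPM with shOgdh346 and 18.6 to 26.4 CPM with shOgdh2081, against 18.2 to 23.8 CPM in control BFP positive cells at day 4, so that the shOgdh2081 libraries overlap these controls. The control libraries of day 2 reached 35.1 to 46.2 CPM. Against BFP negative cells 4 rose and 1 fell (20.8% of all genes called), with a median of 0.0836. The count of rises was 1 without control BFP negative replicate 2, shOgdh346 replicate 1 or shOgdh2081 replicate 2, and 2 without shOgdh2081 replicate 1 or without the shallower library of each hairpin. It was 1 with no filter, after thinning and with DESeq2. Against BFP positive cells the count of rises also depended on single libraries. It was 1 without control BFP positive replicate 1, where Sptb (0.49, adjusted p = 0.188), Aqp1 (0.39, adjusted p = 0.361) and Epb42 (0.37, adjusted p = 0.274) lost their calls, and 2 without shOgdh2081 replicate 2. Epb42 also lost its call when replicate 2 of the induced control was left out (0.48, adjusted p = 0.0548), and likewise for replicate 1 of shOgdh346 (0.23, adjusted p = 0.407) and replicate 2 of shOgdh2081 (0.44, adjusted p = 0.0765), and Aqp1 and Sptb without the latter (0.39, adjusted p = 0.315, and 0.59, adjusted p = 0.0501). The fall of Ank1 lost its call without control BFP positive replicate 2 (-0.24, adjusted p = 0.124). The count of rises was 3 with DESeq2 and after thinning, and 6 without the shallower library of each hairpin.

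Of 15 genes for red cell enzymes and maturation, 14 were tested, and 4 rose against BFP positive cells, where 7.72% of all genes were called higher, with a median of 0.193. They were Blvrb, a biliverdin reductase (0.33, SE 0.0859), Cat, which breaks down hydrogen peroxide (0.27, SE 0.0862), Fech, which puts iron into heme (0.25, SE 0.0732), and Tfrc, the transferrin receptor (0.24, SE 0.0708). The other 10 did not pass. Against BFP negative cells 3 rose (10.5% of all genes called higher), with a median of 0.108. Neither count was firm. The count of 4 became 0 without control BFP positive replicate 1, 1 without control BFP positive replicate 2, and 2 without shOgdh2081 replicate 2, without the shallower library of each hairpin, with no filter, after thinning and with DESeq2. The count of 3 became 0 without control BFP negative replicate 1, without shOgdh346 replicate 2, with no filter and with DESeq2. It was 1 without each of the other single libraries, without the shallower library of each hairpin and after thinning.

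A few transcription factors and receptors of the red cell lineage were called, in both directions. Whether this list differs from all genes was not tested. All 14 genes of the erythroid transcription and receptor list were tested, and against BFP positive cells 1 rose, 2 fell and 11 did not pass (16.1% of all genes called), with a median of -0.0578. Myb, a factor of early progenitors, rose by 0.35 (SE 0.0645). Nfe2, which binds globin enhancers, fell by 0.41 (SE 0.0784) and Lmo2, a bridging partner of GATA1, by 0.28 (SE 0.0732). After thinning 1 of these 2 falls kept its call, that of Nfe2. Lmo2 was not called when control BFP positive replicate 1 was left out (-0.29, adjusted p = 0.0905) or replicate 2 was (-0.27, adjusted p = 0.0616). Named after its values were seen, Gata1 stood at -0.04 (SE 0.0719, adjusted p = 0.78) and Klf1 at -0.06 (SE 0.0776, adjusted p = 0.678). Against BFP negative cells 1 rose and 4 fell (20.8% of all genes called). The 4 falls became 1 without control BFP negative replicate 1, shOgdh346 replicate 2 or shOgdh2081 replicate 2, without the shallower library of each hairpin, after thinning and with DESeq2. Of 14 other carbonic anhydrases 4 were tested, and 1 rose against BFP positive cells (7.72% of all genes called higher). Against BFP negative cells 1 rose as well (10.5% of all genes called higher), and 0 after thinning. Car7, the gene called against BFP positive cells, rose by 0.75 (SE 0.207, adjusted p = 0.00749). It went from 10.7 to 13.5 CPM in induced controls to 16.3 to 23.0 CPM. That call did not hold after thinning, with DESeq2, or when control BFP positive replicate 1 was left out (0.57). Nor did it hold with replicate 1 of shOgdh346 left out (0.66, adjusted p = 0.0996) or with replicate 2 of shOgdh2081 left out (0.55, adjusted p = 0.202).

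**Figure D5:**
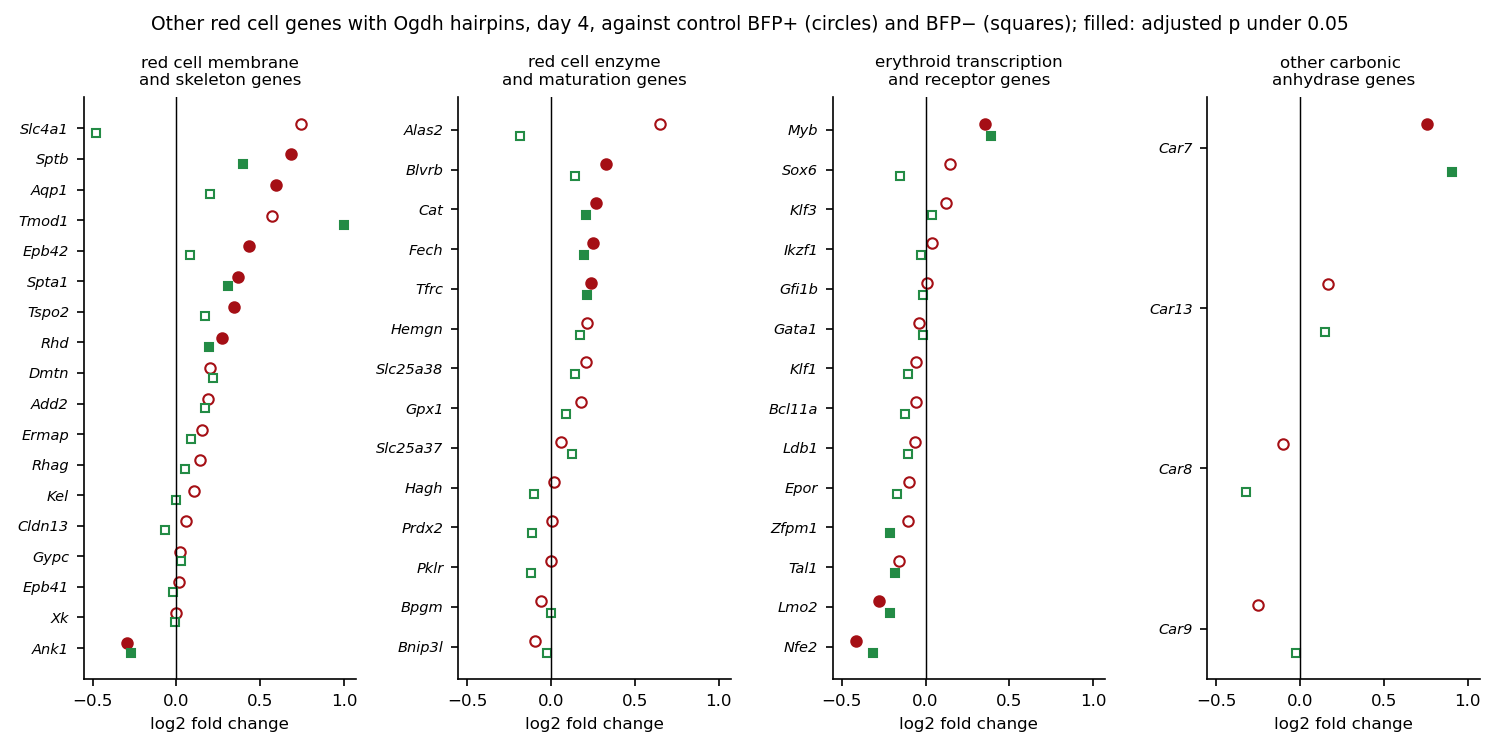
Log2 fold changes of both Ogdh hairpins at day 4 against control BFP positive (circles) and BFP negative (squares) cells for the tested genes of 4 lists, filled where the adjusted p was under 0.05. In the membrane list 6 circles to the right of 0 are filled, led by Sptb, and in the transcription list Gata1 and Klf1 lie near 0.

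Markers of other blood cells were read beside these values. The 11 mast cell and basophil markers summed to 757 to 803 CPM in the 4 knockdown libraries and to 566 to 608 CPM in the day 4 controls. Of 4 tested, Ms4a2 (1.03, SE 0.109) and Il1rl1 (0.57, SE 0.0796) rose against BFP positive cells, and 3 of the 11, Tpsb2, Tpsab1 and Mcpt4, were at 0 in every library. The part of such cells or genes in the results was not tested. The 10 megakaryocyte markers summed to 77.7 to 85.4 CPM in knockdown and 75.2 to 86.5 CPM in day 4 control libraries, with Gp6 at 0 counts. Of the 3 tested, Vwf rose by 0.85 (SE 0.182, adjusted p = 0.000507) against BFP positive cells, where 7.72% of all genes were called higher. The other 2 did not pass, and the median over the 3 was -0.198. The call of Vwf ended when control BFP positive replicate 1 was left out (0.74). Macrophage markers summed to at most 9.31 CPM in any day 4 library, with C1qa at 0, neutrophil markers to at most 1.17 CPM, with Elane at 0, eosinophil markers to at most 2.29 CPM, with Epx at 0, and lymphocyte markers to at most 3.28 CPM, with Cd3e at 0. The erythroid factors Gata1 and Klf1 passed the filter on low counts in this line, which is labelled as myeloid leukemia.

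As a description over the 14 libraries, Car1 varied most like Lpin2 (Pearson r of log2 CPM 0.96), Ankrd28 (0.951) and Mroh2a (0.95). Hba-a1 varied most like Igsf3 (0.883), Ubb and Cdk2ap2, and Hba-a2 like Wdr6 (0.894), Dhdds and Tfip11. Hbb-bs varied most like Bcl2l13 (0.89), Arfgap2 and Snx15, and Hbb-bt like Git2 (0.916), Arhgap20 and Iqgap3. Among the 3 genes most like Car2 were Ik (0.828) and Hsdl2 (0.824). No globin was among the 3 genes most like another. Between the genes themselves r was 0.817 for Hba-a1 with Hbb-bs, 0.789 for Hba-a1 with Hba-a2 and 0.771 for Hbb-bs with Hbb-bt, and for Car1 it was 0.665 with Hbb-bt, 0.523 with Hba-a2, 0.19 with Hba-a1 and 0.135 with Hbb-bs. These libraries share groups and counting, and the partners of a pair share reads.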

How the data were processed

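Per the labels' protocols, polyA RNA from murine AML cells was sequenced as single-end reads of 76 bases. The authors deposited whole-number counts per gene for each library, not normalized, and a transcript length per gene in bases (another unit), used here for levels per kilobase. The submitters' processing notes list mm10 and GRCm38 as builds and, as tools, featureCounts 1.6.3, STAR 2.6.1a, Trimmomatic 0.36 and FastQC 0.11.5. The labels' protocols instead name HTSeq, an RPKM matrix and hg19, but the table holds counts under mouse gene identifiers. Of 53274 genes shared with GENCODE M21, 96.29% have the same coordinates.

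Groups and replicate numbers came from titles and descriptions. Counts were filtered with filterByExpr, scaled by trimmed mean of M values factors (0.968 to 1.01) and fitted in R 4.3.3 with edgeR 4.0.16 for quasi-likelihood F tests. All 14 libraries entered a single fit with group as its term (7 residual and 57.6 prior degrees of freedom). Tests were two-sided, with Benjamini-Hochberg adjustment over 10791 genes. The script recovered known changes in simulated counts. Replicates differed by more than sampling noise in every group (chi-square per degree of freedom 1.16 to 2.71).

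Alternatives were other size factors, DESeq2 1.42.0, no filter, fewer groups, blocks, left-out libraries and binomial thinning to 913482 counts. The first thinning function tried drew reads with replacement, which added variance. It was replaced after its output was seen. The 6 genes and the gene lists were chosen with earlier results of these data known. Named besides the 6 genes were Ogdh, up to 4 called genes of each list with the largest change against control BFP positive cells, and the 3 genes most like each of the 6 with a mean of at least 5 CPM. Ank1, Gata1, Klf1, the genes called between the control populations and markers at 0 were named after their values were seen. Some genes of this rule and of the lists are not reported here, and the membrane list was counted without 1 of its genes.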

Additional observations from a re-analysis of the deposited data

How the results depend on the processing

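Most values kept their direction and their side of the threshold. For the 6 genes, the 2 sums and the counts of genes called, both hairpins against each day 4 control and the day 4 controls against each other gave 337 of 387 unchanged values. The counts of genes called were judged by their size instead, and 15 of them moved. The other comparisons of the 6 genes and sums, single hairpins included, and some named genes outside the 6 gave 1420 of 1642. Values that were not called and stayed so are included. Groups of 2 and libraries of 913482 to 2148243 counts (4 of 14) limit the precision of Hbb-bt and Hba-a2. Those named genes outside the 6 and the list counts were run under these alternatives after the data were seen. For each change below the cause was not tested.

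Genes called fell from 1735 to 709 after thinning and 708 with DESeq2 (against BFP positive), from 2243 to 654 and 762 (against BFP negative), and from 8 to 4 and 3 (between controls at day 4). Leaving out single libraries gave 461 to 1468, 1351 to 1890 and 3 to 16 genes; without control BFP positive replicate 1 or 2 the first count was 461 or 936.

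Against BFP positive cells, Hba-a2 was no longer called after thinning (0.51) and with DESeq2 (0.51), and ranged from 0.41 to 0.63 without single libraries. Car2 was called at 0.16 with only the groups compared. Against BFP negative cells, Hba-a2 was not called after thinning (0.41) and with DESeq2 (0.49), with 0.32 to 0.67 without single libraries. The alpha sum lost its call with no filter (0.15), the library number block (0.20), only the groups compared (0.19), thinning (0.24) and DESeq2 (0.19), with 0.062 to 0.31 without single libraries. Hbb-bs was called lower with no filter (-0.26) and with only the groups compared (-0.22), and Hbb-bt turned to -0.19 after thinning. Between the controls at day 4, Hbb-bt was not called with DESeq2 (-1.01), and ranged from -1.08 to -0.95 without single libraries, Hba-a1 from -0.49 to -0.26 and Car1 from -0.20 to 0.047. Hba-a2, at 0.00, turned to -0.0040 with library totals, -0.025 with no filter, -0.021 with the replicate block, -0.0079 with the library number block, -0.00060 with only the groups compared, -0.097 after thinning and -0.020 with DESeq2, with -0.21 to 0.13 without single libraries.

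Between the hairpins, Hba-a1 turned to -0.022 with no filter, -0.0028 after thinning and -0.0015 with DESeq2 (-0.13 to 0.078 without single libraries), and the alpha sum to 0.0084 with the replicate block (-0.12 to 0.077), with Hba-a2 at -0.15 to 0.094. Against day 0, thinning turned Hba-a1 to -0.061 and the alpha sum to -0.067 (BFP negative, day 2), Hbb-bt to -0.16 (knockdown) and Hbb-bt to 0.028 (BFP negative, day 4). Without single libraries, day 2 BFP negative cells gave -0.095 to 0.030 for Car1, -0.0087 to 0.13 for the alpha sum and -0.33 to 0.13 for Hba-a2. At day 4, Hbb-bt gave -0.18 to 0.0019 in BFP negative and Car2 -0.054 to 0.030 in BFP positive cells, and Hba-a2 -0.24 to 0.054 in knockdown cells. The change from day 2 to day 4 ranged from -0.025 to 0.15 for Car2, -0.28 to 0.31 for Hbb-bs, -0.062 to 0.23 for Hbb-bt and -0.24 to 0.29 for the beta sum. Gata1 turned to 0.028 without the shallower library of each hairpin, and Klf1 turned to 0.0026 without control BFP positive replicate 2.

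Replicate numbers gave no clear pairing over all groups: same-numbered deviations correlated at -0.209 to 0.281 over 21 pairs of groups, with a median of 0.0135. Since 4 were over 0.1, the check cannot exclude pairing between some groups. With the replicate block 1850 genes were called against BFP positive cells, 2388 against BFP negative cells and 9 between the controls at day 4. The block changed 1 call of the 6 genes, Hba-a2 between the controls at day 2 (-0.47, adjusted p = 0.0493, edgeR).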
